A study of Mus musculus with 4 samples.

Results

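The quantity examined was how far the effect of LPS on each gene depended on NR4A3. It was computed for every gene as the LPS difference with NR4A3 siRNA minus the LPS difference with control siRNA, on the log2 scale, from all 4 arrays of the series' 4. Mouse bone marrow cells were grown into dendritic cells for 10 days with 20 ng/mL GM-CSF and 10% serum, and all 4 cultures were then electroporated with an siRNA. The 4 conditions were control siRNA (si-Ctrl) without LPS, control siRNA with LPS, NR4A3 siRNA (si-NR4A3) without LPS and NR4A3 siRNA with LPS. LPS was given at 100 ng/mL, 24 hours after transfection, and the cells were collected 24 hours later. The mouse strain is unclear: the culture protocol names BALB/c, while each sample's own strain label reads C57BL/6. Age and sex are not given.

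Each condition had 1 array, so the spread between cultures is unknown. The difference of LPS differences used up all 4 arrays and left 0 residual degrees of freedom. All values below are therefore descriptions of these 4 arrays, with no error and no p-value. For the same reason a value resting on 1 deviating array could not be recognised as such.

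NR4A3 is an orphan nuclear receptor, a transcription factor whose activity follows mainly from how much of it is made. Its close relatives NR4A1 and NR4A2 can bind the same DNA element. LPS, a component of the outer membrane of Gram-negative bacteria, is sensed through TLR4 and drives dendritic cells to mature: they take up less antigen, show co-stimulatory molecules, secrete cytokines and move towards lymph nodes. A difference of differences compares the size of that response under the 2 siRNAs. The same number is also the siRNA difference with LPS minus the siRNA difference without LPS. A positive value can therefore mean a larger response, a smaller decline, or a gap between the siRNAs that was wide without LPS and narrower with it.

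The arrays gave 19938 named genes, of which 10592 were past the filter: at least 1 of the 4 arrays reached the median level of all named genes, 6.66. Array medians lay between 6.37 and 6.42. Of 12 dendritic cell markers, 11 were past the filter, and the integrin Itgax and the MHC class II genes H2-Aa and Cd74 had levels above 12 on every array, whereas the cytokine receptor Flt3 was below the filter on all 4. Defining markers of T cells were mostly dim, with 1 of 9 past the filter, as were those of B cells with 1 of 7 and NK cells with 0 of 9. In RNA from a whole culture, fewer cells of a type and less RNA per cell cannot be told apart.

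The LPS responses under the 2 siRNAs were alike for most genes. Across the 10592 genes, Pearson's r between both LPS differences was 0.89. These pairs share no array, and genes are not independent replicates. The median size of the LPS difference was 0.23 under either siRNA. LPS-treated levels were at least 2-fold above the unstimulated ones in 518 genes with control siRNA and in 555 with NR4A3 siRNA. The 410 genes common to both made up 79.2% of the first set and 73.9% of the second. In the other direction 397 genes were at least 2-fold lower with control siRNA and 283 with NR4A3 siRNA. Here the 225 common genes were 56.7% of the first set and 79.5% of the second.

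The difference of LPS differences was small for most genes, with a median size of 0.15 and a 95th percentile of 0.59. It reached 1 (2-fold) in 128 genes past the filter, or 1.21% of them. In 69 genes (0.651%) the LPS difference was higher with NR4A3 siRNA, and in 59 (0.557%) it was lower. Of the 9346 genes below the filter on all arrays, 2 reached the same size in the higher direction and 3 in the lower one, 0.0535% together. The largest values were 3.12 for Cldn1 and -2.68 for Perp. All 4 arrays reached 6.66 for 36 of the higher and 28 of the lower genes. For the remaining 33 and 31 genes at least 1 array lay below it, where arrays compress differences, so their values are approximate.

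**Figure D1:**
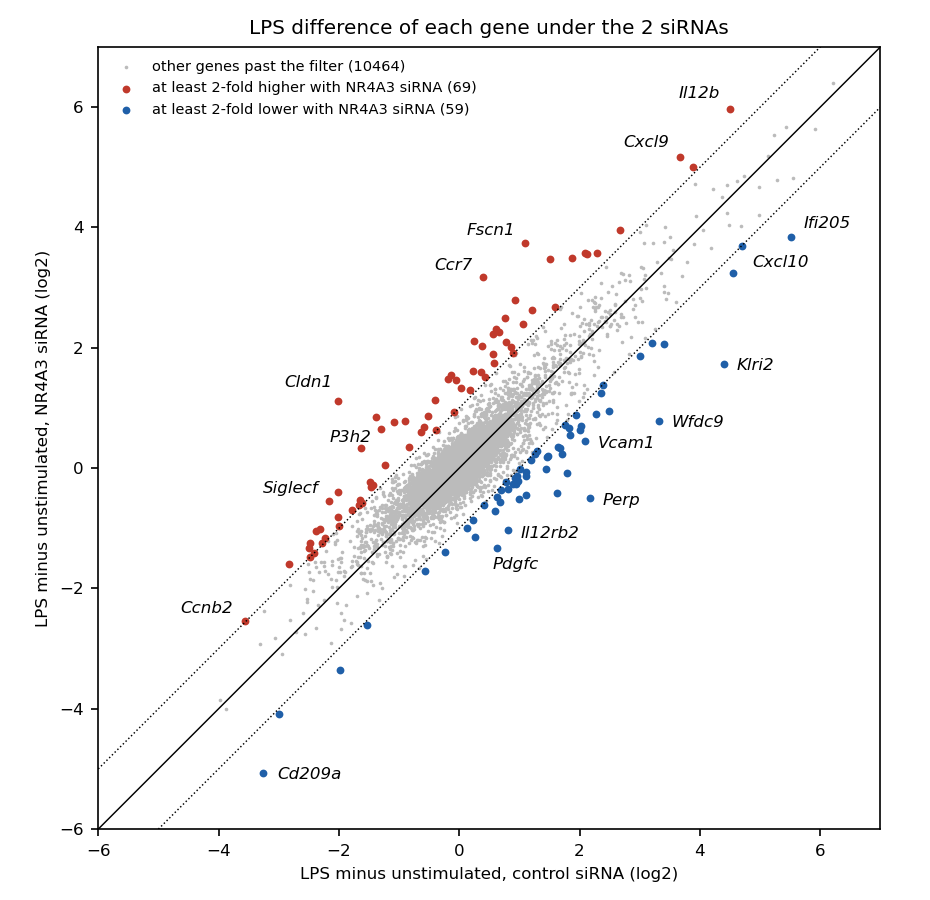
Each point is 1 gene past the filter, with its LPS difference under control siRNA (x axis, log2) and under NR4A3 siRNA (y axis, log2). The solid line marks equal differences and the dotted lines a 2-fold departure from them: 69 genes lie above the upper dotted line (red) and 59 below the lower one (blue), while the other 10464 genes (grey) lie between.

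The targeted gene itself was among the 69. Nr4a3 stood at 11.21 with control siRNA without LPS and at 11.77 with LPS, and at 7.15 and 9.39 with NR4A3 siRNA. Its gap between the siRNAs was 16.6-fold without LPS and 5.21-fold with LPS, which gives a difference of LPS differences of 1.68. The depletion of Nr4a3 RNA was thus less deep in the LPS-treated culture, and its part in the values of other genes was not tested. Among its relatives, Nr4a1 had levels between 6.74 and 6.85 on all arrays and a value of -0.02. Nr4a2 went from 7.79 to 9.79 with control siRNA and from 7.48 to 8.60 with NR4A3 siRNA, a value of -0.88 that was not counted.

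The state with the larger siRNA difference was recorded for each counted gene. Among the 69 higher genes the larger siRNA difference lay without LPS in 53 and with LPS in 16. Among the 59 lower genes it lay with LPS in 49 and without LPS in 10. These splits are not a separate contrast between the higher and lower genes. A value is the siRNA difference with LPS minus that without. Both majorities, 53 and 49, are therefore the genes whose siRNA differences sum to below 0, and the opposite states follow from sorting by sign. At 1.5-fold, 30 higher genes were lower with NR4A3 siRNA in unstimulated cells alone and 21 were lower in both states. Another 15 were higher with NR4A3 siRNA under LPS alone, 1 was higher in both states, and 2 were lower without LPS and higher with it. Of the lower genes, 42 were lower with NR4A3 siRNA under LPS alone, 7 in both states, 9 were higher in unstimulated cells alone and 1 was higher without and lower with LPS.

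**Figure D2:**
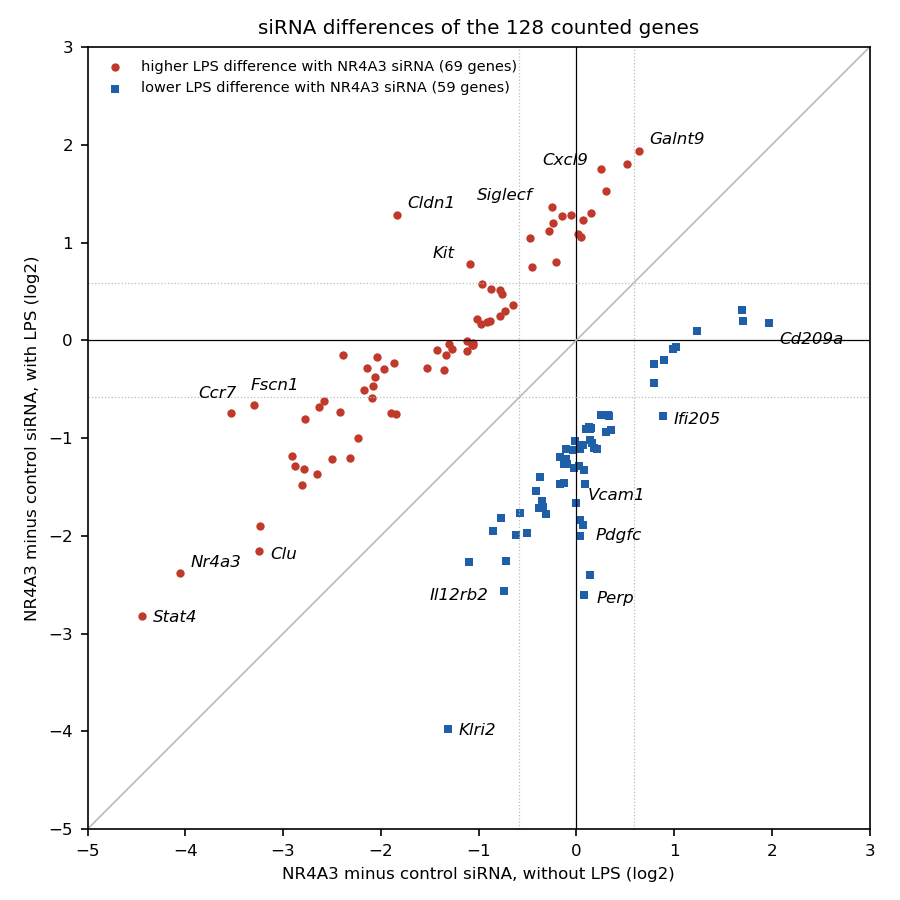
Each point is 1 of the 128 counted genes, with the NR4A3 minus control siRNA difference without LPS (x axis, log2) and with LPS (y axis, log2); dotted lines mark 1.5-fold and the diagonal marks equal differences. Of the 69 genes with a higher LPS difference (red circles), 53 lie farther from 0 on the x axis than on the y axis, and 49 of the 59 with a lower one (blue squares) lie farther from 0 on the y axis. In both colours these are the genes whose siRNA differences sum to below 0.

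Genes of dendritic cell migration were among the highest values. Ccr7, the receptor for the lymph node chemokines CCL19 and CCL21, had levels of 12.99 without and 13.38 with LPS under control siRNA. With NR4A3 siRNA it had 9.46 and 12.64. The LPS-treated level under NR4A3 siRNA was below both control levels, while the unstimulated level was far below the other 3. The LPS difference was thus 1.31-fold with control and 9.10-fold with NR4A3 siRNA, a difference of 2.79. Fscn1, which bundles actin in dendrites, went from 12.24 to 13.34 with control and from 8.95 to 12.68 with NR4A3 siRNA, a value of 2.63. It followed the same order of levels, except that its LPS-treated level under NR4A3 siRNA was above the unstimulated control. Both control levels of Ccr7 and the LPS-treated control level of Fscn1 lay above the 99th percentile of named genes (12.60 without and 12.72 with LPS). What part limited room for a further increase had in these values was not tested.

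Mmp25, a membrane-anchored metalloproteinase, had levels of 11.26 and 12.03 with control siRNA and of 8.35 and 10.84 with NR4A3 siRNA, a value of 1.72. Adam23, a disintegrin-like protein of the cell surface, behaved differently under control siRNA. Its level was 10.21 without and 9.13 with LPS there, but 8.07 and 8.84 with NR4A3 siRNA, so the LPS differences had opposite signs (-1.08 and 0.77). Gene lists were counted at 1.5-fold among members past the filter, while list medians cover all measured members. Of the 28 migration genes, all past the filter, 6 were at least 1.5-fold higher and 1 lower in this measure. Over all genes past the filter the shares were 2.9% and 2.12%, or 5.02% in either direction. The other members past 1.5-fold were the gelatinase gene Mmp2 at 0.96, the sphingosine-1-phosphate receptor gene S1pr1 at 0.73 and the chemokine receptor gene Cxcr4 at -0.64. The median of the list was 0.23, against 0.05 for all genes past the filter, and 22 of 28 members were above 0. The list was chosen with earlier results on Ccr7 and Fscn1 known.

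Several other highly expressed genes had the same shape, a wide gap without LPS and a narrow one with it. Ccl5, a chemokine for T cells and other leukocytes, had 13.16 and 14.09 with control siRNA and 11.12 and 13.91 with NR4A3 siRNA, a value of 1.87. Its LPS-treated levels lay close to the highest level of any probe set on those arrays, 14.25 and 14.22, where an array has little room for a further increase. What part that had in the value was not tested. Jak2, a kinase that relays cytokine receptor signals, had 11.38 and 11.99 with control siRNA and 9.31 and 11.62 with NR4A3 siRNA, a value of 1.69. Aldh1a2, an enzyme of retinoic acid synthesis, had 10.85 and 10.72 with control siRNA, so LPS made little difference there, and 8.88 and 10.43 with NR4A3 siRNA, a value of 1.67. Cd40, the co-stimulatory receptor engaged by T cells, reached 12.28 with LPS under both siRNAs. Without LPS it stood at 8.39 with control and 7.27 with NR4A3 siRNA, so its value of 1.11 came from the unstimulated cells.

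In other genes a gap of over 1.5-fold remained with LPS. Slamf7, a receptor of the SLAM family, had 10.63 and 12.14 with control siRNA and 7.85 and 11.33 with NR4A3 siRNA, a value of 1.98. Stat4, a transcription factor activated by interleukin-12, had 9.94 and 11.81 with control siRNA and 5.50 and 8.99 with NR4A3 siRNA, a value of 1.62. Its lowest level lay below the filter, as did those of the next 2 genes. Il12b, which encodes the p40 subunit of interleukin-12 and interleukin-23, had 8.97 and 13.47 with control siRNA and 6.18 and 12.16 with NR4A3 siRNA, a value of 1.48. Mx1, an antiviral GTPase induced by interferon, had 8.54 and 10.63 with control siRNA and 6.45 and 10.03 with NR4A3 siRNA, a value of 1.49.

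The direction for such genes depended on the scale. In fold terms the LPS difference of Il12b was 22.6-fold with control siRNA and 62.9-fold with NR4A3 siRNA. In units of signal, 2 to the power of the log2 level, its LPS difference was 10859 with control siRNA and 4497 with NR4A3 siRNA. For Stat4 the signal differences were 2609 and 463, and for Mx1 they were 1210 and 960. Of the 69 higher genes, 13 had the opposite sign on the signal scale, among them Nr4a3, Slamf7, Mmp25, Stat4, Mx1, Il12b, Gadd45b and Clu. None of the 59 lower genes did. For Ccr7 the signal differences were 2551 and 5690, so its direction was the same on both scales. Fscn1 also kept its direction, but its signal differences of 5543 and 6079 lay closer together.

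A further set was lower with LPS under control siRNA and near its floor without LPS under NR4A3 siRNA. P3h2, a collagen prolyl hydroxylase, had 8.22 and 6.84 with control siRNA and 5.84 and 6.69 with NR4A3 siRNA, a value of 2.23. Aoc1, the histamine-degrading diamine oxidase, had 8.17 and 6.54 with control siRNA and 5.59 and 5.92 with NR4A3 siRNA, a value of 1.96. Ndnf, a secreted factor, had 7.81 and 6.52 with control siRNA and 5.18 and 5.84 with NR4A3 siRNA, a value of 1.95. In all of them the unstimulated control array was the highest. Ceacam15, of the carcinoembryonic antigen family, had the same order, with 7.87 and 6.98 under control siRNA and 5.45 and 6.24 under NR4A3 siRNA, a value of 1.68. At least 1 array of each lay below the filter, so these sizes are approximate.

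Cldn1 and Kit crossed: they were lower with NR4A3 siRNA without LPS and higher with it. Cldn1, a tight junction protein, had the highest value of all genes past the filter. Its level was 9.57 without and 7.55 with LPS under control siRNA, and 7.73 without and 8.84 with LPS under NR4A3 siRNA. LPS therefore went with a 4.03-fold lower level under control and a 2.16-fold higher level under NR4A3 siRNA. Kit, the stem cell factor receptor, had 6.97 and 7.21 with control siRNA and 5.88 and 7.99 with NR4A3 siRNA, a value of 1.87. Kit is also a mast cell marker. Over all genes past the filter, 5.02% were past 1.5-fold in either direction. Of the 12 mast cell and basophil markers 3 were past the filter, with a median value of 0.53, and Kit alone was past 1.5-fold. The other 9, including Cpa3, Fcer1a and Ms4a2, were below the filter on all 4 arrays. The part of mast cells in the Kit value was not tested. The mean level of that list was 5.55 and 5.67 with control siRNA and 5.51 and 5.80 with NR4A3 siRNA.

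**Figure D3:**
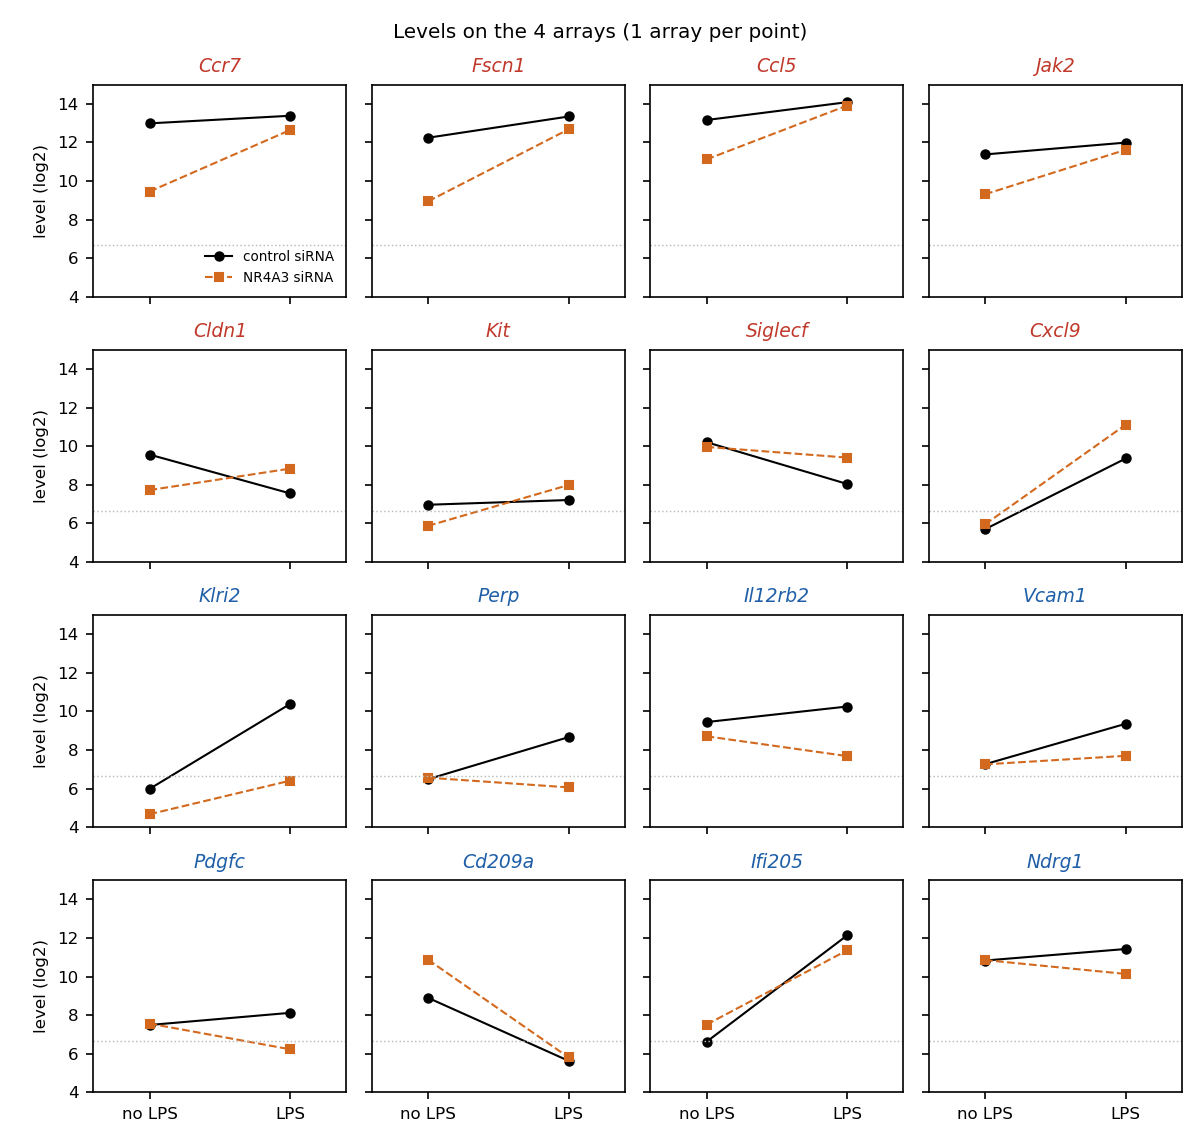
Levels (y axis, log2) without and with LPS (x axis) for genes with a higher (red names) or lower (blue names) difference of LPS differences; each point is 1 array, lines join the arrays of 1 siRNA, and the dotted line is the filter at 6.66. In Ccr7, Fscn1, Ccl5 and Jak2 the siRNAs lie apart without LPS and come closer with it, in Cldn1 and Kit the lines cross, and in Perp, Vcam1, Pdgfc and Ndrg1 the siRNAs start level and part with LPS.

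A smaller set was higher with NR4A3 siRNA in LPS-treated cells. Siglecf, a sialic acid-binding receptor of the myeloid lineage, had 10.21 and 8.04 with control siRNA and 9.96 and 9.41 with NR4A3 siRNA. Its decline with LPS was thus 2.16 under control siRNA and 0.55 under NR4A3 siRNA, a value of 1.61. Siglecf also marks eosinophils, whose other markers Prg2, Epx, Ccr3 and Il5ra were below the filter on all 4 arrays. The part of eosinophils in the Siglecf value was not tested. Galnt9, which encodes an enzyme that starts O-linked glycans, had 10.55 and 8.25 with control siRNA and 11.19 and 10.19 with NR4A3 siRNA, a value of 1.30. Mmp8, a collagenase known from neutrophils, had 12.74 and 10.51 with control siRNA and 12.76 and 11.59 with NR4A3 siRNA, a value of 1.06. At 1.5-fold, 2.9% of all genes past the filter were higher and 2.12% lower. Of 14 neutrophil markers 3 were past the filter, of which 2, Mmp8 and S100a8 (0.63), were at least 1.5-fold higher and 0 lower. The other 11 were below the filter on all arrays. The list mean went from 6.58 to 6.35 with control and from 6.74 to 6.52 with NR4A3 siRNA. The part of neutrophils in these values was not tested.

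The immediate-early factor gene Fos had 9.17 and 7.16 with control siRNA and 8.71 and 7.91 with NR4A3 siRNA, a value of 1.21. Vnn3, of the pantetheinase family, had 6.14 and 8.81 with control siRNA and 6.66 and 10.61 with NR4A3 siRNA, a value of 1.29. Its unstimulated levels were both below the filter, so the LPS-treated levels carried the difference. Of 24 immediate-early factors and MAP kinase phosphatases measured, 23 were past the filter. Fos was the only 1 of these past 1.5-fold in either direction, against 5.02% of all genes past the filter. The list had a median of -0.10.

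Of 33 mitosis genes measured, 32 had values above 0, against 9857 of all 19938 genes measured. Of the 33, 28 were past the filter, and 20 of these were past 1.5-fold on the higher side and 0 on the lower side. The shares over all genes past the filter were 2.9% and 2.12%. Kif4, a chromosome-binding kinesin below the filter on all arrays, had 0.84. The list median was 0.73. The 1 gene of the 33 that was not above 0 was Cenpa, the centromeric histone, at -0.41, and all its arrays reached the filter. The median LPS difference of these genes was -1.53 with control siRNA and -0.96 with NR4A3 siRNA, and the median siRNA difference was -0.82 without LPS and -0.09 with it. Kif11, a kinesin that separates spindle poles, had 8.44 and 5.93 with control siRNA and 7.16 and 5.84 with NR4A3 siRNA. Prc1, which bundles microtubules of the spindle midzone, had 8.38 and 6.00 with control siRNA and 6.95 and 5.90 with NR4A3 siRNA, the list's highest value at 1.33. In both genes the LPS-treated levels were below the filter under either siRNA, where a smaller decline and a decline to the array's floor cannot be told apart. For 7 mitosis genes all 4 arrays reached the filter; their median was 0.58, and 3 of them were past 1.5-fold. Mki67, a marker of cycling cells, was 1 of these, with 9.11 and 8.47 under control siRNA and 8.35 and 8.95 under NR4A3 siRNA, so that its LPS differences had opposite signs (-0.64 and 0.60). Of 29 genes of DNA replication and S phase measured, 27 were past the filter. Of these 0 were past 1.5-fold in either direction, against 5.02% of all genes past the filter. The median over the 29 was 0.18.

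For 42 of the 59 lower genes the unstimulated levels were less than 1.5-fold apart, and the siRNAs parted with LPS. In 29 of the 59 LPS went with an at least 1.5-fold higher level under control siRNA alone, and in 17 under both siRNAs. At least 1 array lay below the filter for 31 of the 59. Where the LPS-treated control array alone was above it, the other levels were near the floor. There a close unstimulated pair or a missing response with NR4A3 siRNA cannot be told apart from compression at the floor. Perp, a membrane protein of desmosomes and a p53 target, had 6.49 and 8.67 with control siRNA and 6.57 and 6.06 with NR4A3 siRNA. Only the LPS-treated control array was above the filter. Vcam1, an adhesion molecule for leukocyte integrins, had 7.26 and 9.36 with control siRNA and 7.26 and 7.70 with NR4A3 siRNA. All its arrays were above the filter, and the value of -1.65 came from the 3.16-fold lower level under NR4A3 siRNA with LPS.

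Other lower genes were read mainly from the LPS-treated control array. Wfdc9, of the whey acidic protein family, had 5.49 and 8.82 with control siRNA and 5.63 and 6.42 with NR4A3 siRNA, a value of -2.54. C1ql3, a secreted protein with a C1q-like domain, had 5.74 and 7.36 with control siRNA and 5.78 and 5.36 with NR4A3 siRNA, a value of -2.04. The same held for Adig, Plekhs1, Klri1 and Zfand4, with values between -1.87 and -1.46. In each of these genes 1 array alone was above the filter. Etfbkmt, which encodes a mitochondrial methyltransferase, had all 4 arrays above it, with 7.50 and 8.61 under control siRNA and 7.59 and 7.14 under NR4A3 siRNA, a value of -1.55. Cd34, a sialomucin of progenitor and endothelial cells, was parted by a lower level under NR4A3 siRNA, with 7.32 and 7.58 under control siRNA and 7.40 and 6.26 under NR4A3 siRNA, a value of -1.41. Mtss1, a protein that links membrane and actin, had 10.08 and 9.84 with control siRNA and 10.12 and 8.73 with NR4A3 siRNA, a value of -1.15.

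Klri2, a killer-cell lectin-like receptor, had 5.99 and 10.39 with control siRNA and 4.67 and 6.41 with NR4A3 siRNA. Only the LPS-treated control array was above the filter. Its value of -2.66 and the folds behind it, 21.1-fold with control and 3.33-fold with NR4A3 siRNA, are therefore approximate. Klri1 and Klri2 are close relatives, so probes could share signal and their levels are uncertain. Of 14 killer-cell lectin-like receptors measured, 9 were past the filter, of which 2 were at least 1.5-fold higher and 2, Klri1 and Klri2, lower. The shares over all genes past the filter were 2.9% and 2.12%. Klrk1, the activating receptor NKG2D, was higher at 0.94, with 8.33 and 9.73 under control siRNA and 6.45 and 8.79 under NR4A3 siRNA. On the signal scale its sign was opposite.

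In 3 lower genes LPS differences of at least 1.5-fold had opposite signs. Il12rb2, the signalling subunit of the interleukin-12 receptor, had 9.45 and 10.25 with control siRNA and 8.71 and 7.68 with NR4A3 siRNA, a value of -1.83. Pdgfc, a growth factor for mesenchymal cells, had 7.49 and 8.12 with control siRNA and 7.57 and 6.23 with NR4A3 siRNA, a value of -1.96. Ndrg1, a stress-responsive gene also induced in hypoxia, had 10.83 and 11.43 with control siRNA and 10.86 and 10.14 with NR4A3 siRNA, a value of -1.32. In each of them the LPS-treated array under NR4A3 siRNA was the lowest of the 4. Over all genes past the filter, 2.9% were at least 1.5-fold higher and 2.12% lower. Of 12 genes of the interleukin-12 family and its receptors 10 were past the filter, of which 4 were at least 1.5-fold higher and 2 lower. The lower ones were Il12rb2 and the shared subunit gene Ebi3 at -0.61, and Il23a, below the filter on all arrays, had -0.65. Each of the 4 higher genes, Stat4, Il12b and the interleukin-18 receptor genes Il18r1 and Il18rap, had at least 1 array below the filter. Over the 4 members with all arrays at the filter the median was -0.41. Il18r1 had a value of 1.61, with 8.08 and 6.07 under control siRNA and 6.00 and 5.60 under NR4A3 siRNA. Its unstimulated control array alone was above the filter, so that size is approximate.

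In 10 of the lower genes the larger siRNA gap lay in unstimulated cells, and Cd209a had the most negative value of these. This C-type lectin of the DC-SIGN family had 8.90 and 5.63 with control siRNA and 10.87 and 5.81 with NR4A3 siRNA. Both LPS-treated levels were below the filter, so the decline of 9.63-fold with control and 33.4-fold with NR4A3 siRNA ended at the same low level. Cd209d had the same order of levels, with 7.61 and 5.63 under control siRNA and 9.30 and 5.94 under NR4A3 siRNA, but the 2 genes are related members of 1 family and may share probe signal. Dbp, a transcription factor of the circadian clock's output, had 7.46 and 6.89 with control siRNA and 8.69 and 6.98 with NR4A3 siRNA, a value of -1.14. Of 30 antigen-uptake receptors and lectins, 29 were past the filter, of which 1 was at least 1.5-fold higher and 4 lower. The shares over all genes past the filter were 2.9% and 2.12%, so the count of 1 is close to its share. Mrc1, the mannose receptor, had LPS differences of -3.97 and -3.86 and a value of 0.11.

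Chemokine genes took both directions. Of 27 measured, 22 were past the filter, of which 8 were past 1.5-fold on the higher side and 2 on the lower side. Over all genes past the filter these shares were 2.9% and 2.12%. Ccl20, below the filter on all arrays, had -0.90, and the list median was 0.06. Cxcl9 and Cxcl10 encode interferon-induced ligands of the same receptor, CXCR3, and both lie on chromosome 5. Cxcl9 had 5.70 and 9.36 with control siRNA and 5.95 and 11.12 with NR4A3 siRNA, so its LPS difference was 2.83-fold larger with NR4A3 siRNA. Cxcl10 had 6.34 and 11.04 with control siRNA and 6.44 and 10.13 with NR4A3 siRNA, a value of -1.01. All the unstimulated levels were below the filter, and with LPS the gap was 3.37-fold towards NR4A3 siRNA for Cxcl9 and 1.88-fold towards control siRNA for Cxcl10. Ccl22, a chemokine of mature dendritic cells, had 13.04 and 13.64 with control siRNA and 12.02 and 13.60 with NR4A3 siRNA, a value of 0.97 just under 2-fold. Its LPS-treated levels lay above the 99th percentile of named genes on those arrays, 12.72 and 12.70. What part limited room for an increase had there was not tested.

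Most interferon-induced genes were within 1.5-fold. Of 36 type I interferon-stimulated genes, all past the filter, 32 were within it. Another 3 were past it on the higher side and 1 on the lower side, against 2.9% and 2.12% of all genes past the filter. In a list of this size a count of 1 is close to that share. The median was 0.18, and 29 were above 0. Mx1, given above, had the highest value. Rtp4, a chaperone of receptor trafficking, had 10.21 and 11.50 with control siRNA and 9.53 and 11.70 with NR4A3 siRNA, a value of 0.88. Irf7, a transcription factor that drives interferon production, reached 13.51 and 13.52 with LPS under control and NR4A3 siRNA, and its value of 0.60 came from 11.26 and 10.67 without LPS. Ifi205, of the interferon-inducible p200 family, had the lowest value at -1.67, with 6.62 and 12.14 under control siRNA and 7.51 and 11.36 under NR4A3 siRNA. Its family holds closely related genes that may share probe signal, so its level is uncertain.

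The 250 bases before the transcription start of the counted genes were searched for 3 motifs on both strands, in RefSeq promoters of build GRCm38.p6. Promoters were found for 57 of the 69 higher genes (70 promoters) and 44 of the 59 lower genes (51 promoters). AAAGGTCA, the element that NR4A receptors bind as monomers, was in 0 of the 70 and 0 of the 51, against 1.34% of all 32851 promoters and 0.826% of the 10893 promoters of genes past the filter. GGANTTTCC, part of a form of the NF-kB site, was in 0 and in 1 (1.96%), against 1.07% and 1.16%. GAAANNGAA, the core of the interferon-stimulated response element (ISRE), was in 5 (7.14%) and in 5 (9.80%), against 7.13% and 6.19%. For AAAGGTCA the shares were so low that 0 matches in sets of 70 and 51 promoters cannot show a lack of the element. Sites beyond the 250 bases were not searched. A match is a description of letters, not of a bound site.

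The promoters of Cxcl9, Cxcl10, Stat4 and Ifi205 are shown because all hold the ISRE core while their values took both directions; they were chosen after the values were seen. Each is written 5′ to 3′ on the gene's strand and ends at the base before the start. Cxcl9 lies at chr5:92328080-92328329 and Cxcl10 at chr5:92348890-92349139, both on the minus strand. The Stat4 promoter shown lies at chr1:52007990-52008239 on the plus strand; the gene's other promoter in the table holds none of the 3 motifs. Ifi205 lies at chr1:174031756-174032005 on the minus strand. Capitals mark the ISRE core and, in Cxcl10, also the second match, GGAAATTCC, which is the NF-kB form on the opposite strand.
Cxcl9: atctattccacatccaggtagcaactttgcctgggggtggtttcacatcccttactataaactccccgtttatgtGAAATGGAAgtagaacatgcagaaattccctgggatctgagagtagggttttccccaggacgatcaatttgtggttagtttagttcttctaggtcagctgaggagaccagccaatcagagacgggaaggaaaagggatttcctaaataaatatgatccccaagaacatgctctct
Cxcl10: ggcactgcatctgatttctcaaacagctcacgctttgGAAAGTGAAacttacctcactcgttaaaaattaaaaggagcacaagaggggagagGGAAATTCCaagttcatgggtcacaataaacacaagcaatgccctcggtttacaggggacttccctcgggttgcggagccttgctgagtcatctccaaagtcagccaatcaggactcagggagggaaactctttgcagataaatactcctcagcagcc
Stat4: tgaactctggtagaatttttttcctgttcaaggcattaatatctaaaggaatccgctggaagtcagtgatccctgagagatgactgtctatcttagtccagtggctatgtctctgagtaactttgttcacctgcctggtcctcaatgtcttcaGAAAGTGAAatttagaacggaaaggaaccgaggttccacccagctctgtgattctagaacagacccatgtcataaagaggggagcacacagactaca
Ifi205: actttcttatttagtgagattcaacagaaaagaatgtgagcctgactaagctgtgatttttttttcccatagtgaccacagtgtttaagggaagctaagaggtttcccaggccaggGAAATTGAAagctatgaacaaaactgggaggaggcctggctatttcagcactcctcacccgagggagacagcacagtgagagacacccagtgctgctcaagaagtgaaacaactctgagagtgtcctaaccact
The ISRE core lies 175 to 167 bases before the start in Cxcl9 and 213 to 205 bases before it in Cxcl10. In Stat4 it lies 97 to 89 bases before the start, and in Ifi205 134 to 126 bases. Cxcl10 and Stat4 hold the same letters, GAAAGTGAA, and had values of -1.01 and 1.62.

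Co-stimulatory genes, which give T cells their second signal, were split. Of 18 measured, 17 were past the filter, of which 4 had higher and 3 had lower values past 1.5-fold, and the median was -0.04. The shares over all genes past the filter were 2.9% and 2.12%. Icosl, the ligand of ICOS, had 8.72 and 9.62 with control siRNA and 8.07 and 9.98 with NR4A3 siRNA, a value of 1.01. Cd83, a maturation marker, had 11.09 and 12.36 with control siRNA and 8.44 and 10.64 with NR4A3 siRNA, a value of 0.92. Its siRNA difference was large in both states, -2.65 and -1.73, and on the signal scale its sign was opposite. Cd86, which binds CD28, had LPS differences of 1.97 and 1.82 and a value of -0.15. Tnfsf4, the OX40 ligand, had LPS differences of 2.24 and 1.78 and a value of -0.45, although its siRNA gap was wide in both states (-2.38 and -2.84). Cd200, an inhibitory ligand, had a value of -0.99.

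At 1.5-fold, 2.9% of all genes past the filter were higher and 2.12% lower. Of 22 inflammatory cytokine genes 14 were past the filter, of which 1 was at least 1.5-fold higher and 4 lower. The higher one was the activin subunit gene Inhba at 0.59, and Il10, below the filter on all arrays, had -1.26. The median was -0.25, but -0.02 over the 11 whose 4 arrays all reached the filter. Tnf had LPS differences of 2.07 with control and 1.25 with NR4A3 siRNA, and its LPS-treated levels were 10.39 and 10.40, so its value of -0.83 lay in the unstimulated cells. Il6 reached 11.23 with control siRNA and 10.28 with NR4A3 siRNA from levels below the filter, a value of -0.72. Outside that list, Ptgs2, the inducible prostaglandin synthase, reached 11.99 and 11.47, a value of -0.49. Il1r2, a decoy receptor for interleukin-1, had 8.05 and 8.86 with control siRNA and 8.13 and 7.79 with NR4A3 siRNA, a value of -1.15. Of 20 effector and regulatory enzyme genes 17 were past the filter. Of these 4 were at least 1.5-fold higher and 1 lower, beside the same shares of 2.9% and 2.12%. The list median was 0.10. The higher ones were Aldh1a2 and Vnn3, given above, the tryptophan-degrading enzyme gene Ido1 at 0.71 and the phospholipase gene Pla2g2d at 0.69. The lower one, Ch25h, which makes 25-hydroxycholesterol, had 6.38 and 10.93 with control siRNA and 6.21 and 9.46 with NR4A3 siRNA, a value of -1.31.

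For the signalling lists upstream of these genes, the share over all genes past the filter was 5.02% past 1.5-fold in either direction. In lists of this size a count of 1 is close to that share. Of 23 TLR4 signalling genes 21 were past the filter, of which 1 was higher and 0 lower, with a median of 0.03. That member was Tlr2, a sensor of bacterial lipoproteins, with 10.30 and 10.47 under control siRNA and 10.49 and 11.53 under NR4A3 siRNA, a value of 0.86. Of 22 NF-kB pathway genes 1 was higher and 1 lower, with a median of 0.07. None of 15 genes of MHC class I peptide loading was past 1.5-fold, and of 12 MHC class II genes 0 were higher and 1 lower. Of 11 interferon-gamma-type GTPases and regulators 1 was higher, the GTPase gene Gbp5 at 0.80, whose sign was opposite on the signal scale.

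Metabolic lists had medians from -0.08 to 0.37, against 0.05 for all genes past the filter. Over all those genes 2.9% were past 1.5-fold on the higher side and 2.12% on the lower side. Of 20 cholesterol biosynthesis genes, all past the filter, 17 were above 0 and the median was 0.37, but 1 was past 1.5-fold in each direction. The mean level of the list was 9.42 without and 8.52 with LPS under control siRNA, and 9.44 without and 8.80 with LPS under NR4A3 siRNA. Sqle, which oxidises squalene, had 9.91 and 8.21 with control siRNA and 9.81 and 8.77 with NR4A3 siRNA, a value of 0.65. Of 24 genes of glycolysis and the hypoxia response 4 were past 1.5-fold on the higher side and 1 on the lower side, and the median was 0.28. Of 16 lipid handling genes, all past the filter, 11 were below 0, with a median of -0.08 and 0 higher and 1 lower past 1.5-fold, the fatty acid-binding protein gene Fabp4 at -1.09. In the glycolysis list, Aldoc, an aldolase, had LPS differences of -2.41 with control siRNA and -1.40 with NR4A3 siRNA, down to 8.59 and 9.64, a value of 1.01.

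**Figure D4:**
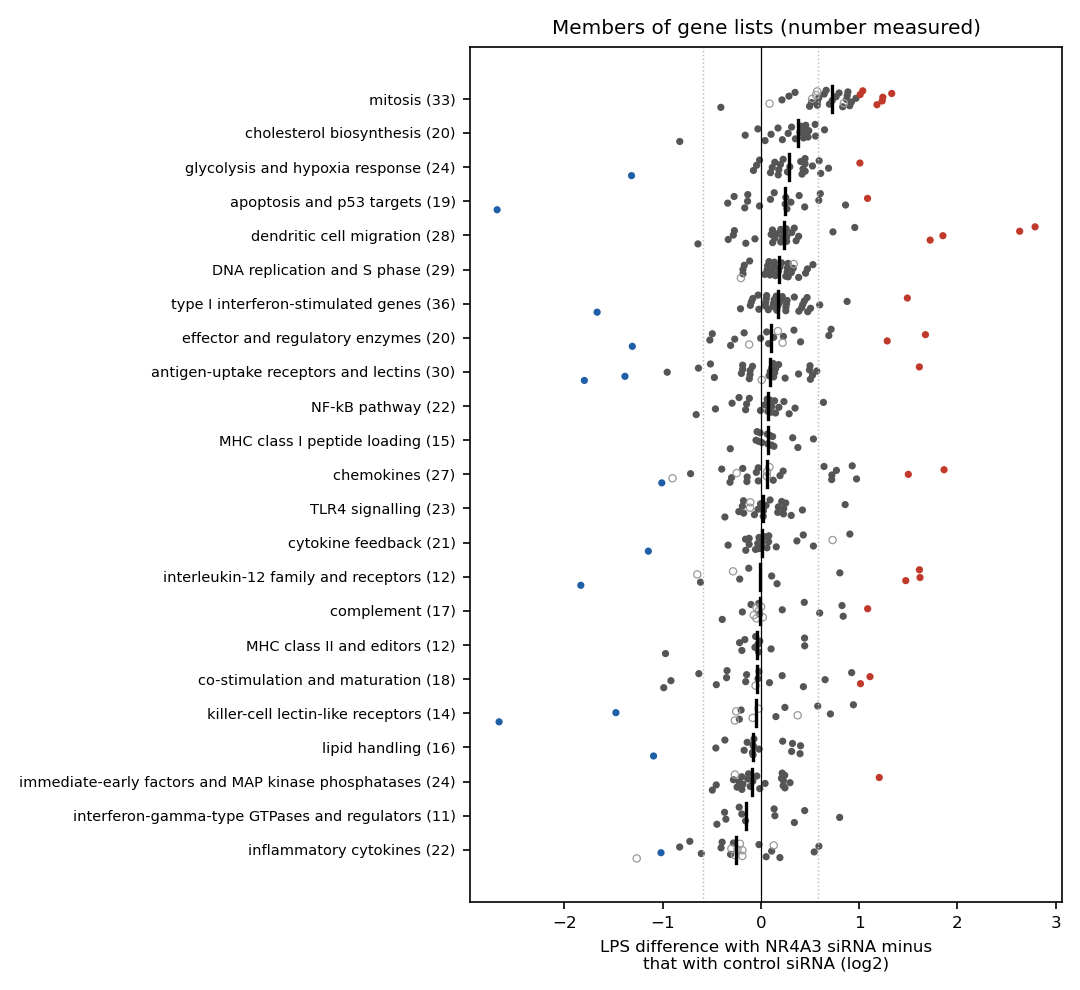
Each point is 1 measured gene of a list, with its difference of LPS differences on the x axis (log2); colours mark genes counted as higher (red) or lower (blue), open circles genes below the filter on all arrays, bars list medians and dotted lines 1.5-fold. Mitosis has the highest median (0.73) and inflammatory cytokines the lowest (-0.25), while dendritic cell migration holds 4 genes past 2-fold and a median of 0.23.

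Macrophage and monocyte markers were checked because such cells share these cultures. At 1.5-fold, 2.9% of all genes past the filter were higher and 2.12% lower. Of 12 macrophage markers 10 were past the filter, of which 2 were at least 1.5-fold higher and 0 lower. They were the complement genes C1qb at 0.84 and C1qc at 0.60, both higher with NR4A3 siRNA in either state, while C1qa had -0.10. On the signal scale the signs of C1qb and C1qc were opposite. Of 7 monocyte markers 2 were lower: Plac8 at -1.14, with 5.59 and 8.59 under control siRNA and 5.47 and 7.33 under NR4A3 siRNA, and Fn1 at -0.73. The mean level of the monocyte list was 9.70 and 9.47 with control siRNA and 9.55 and 9.12 with NR4A3 siRNA. The part of such cells in the other values was not tested.

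The 2-fold threshold cut through a continuous range. Just inside it on the higher side lay the small RNA gene Scarna13 at 1.007 and Aldoc at 1.008, and just outside it Sh3bp5 at 0.997 and Atp8b4 at 0.996. On the lower side Cxcl10 at -1.008 and Ifi213 at -1.012 lay inside, and Cd200 at -0.988 and Fgf23 at -0.987 outside.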

How the data were processed

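Each condition's total RNA was hybridised to 1 Affymetrix Mouse Gene 1.0 ST array. Per the labels, the deposited values are log2 levels from RMA after quantile normalization. The software was Affymetrix Expression Console 1.1, per the submitters' processing notes, and GeneSpring, per the design text. Such normalization hides a shift of most genes in 1 direction. A genome build or an earlier filter is not given in the sources used here.

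Of 28856 probe sets, 21789 had 1 gene symbol in the platform annotation, 1621 several and 5446 none; the 7067 probe sets of the last 2 kinds stayed unnamed. RefSeq held the identifiers of 21698, and 0 symbols were updated. The 999 genes with several probe sets were taken at the brightest. Arrays carry no counting depth; their number limits the precision. The labels do not say whether the cultures were separate.

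A gene was counted at 2-fold when its brightest array reached 6.66, the median of named genes; list members were counted at 1.5-fold. Named genes were Nr4a1 to Nr4a3, the 15 largest values per direction (without gene models, clones, small RNAs, olfactory receptors and the like), up to 4 per list at 1.5-fold, 3 per class, those nearest the threshold, and genes known from earlier results. The members, the 35 lists (594 of 651 entries measured) and the promoter motifs were chosen with earlier results of these data known. Alternatives were median centring, repeated quantile normalization, cyclic loess (limma 3.58.1 in R 4.3.3), thresholds of 1.5-fold and 3-fold, 3 other filters, dim values set to the filter and the mean of probe sets. The counting was tested on simulated data. Computation used Python 3.11.15, numpy 2.4.6 and pandas 2.3.3, with figures by matplotlib 3.10.9.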

Additional observations from a re-analysis of the deposited data

Results flagged for a closer look

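In 9 genes the LPS difference was at least 1.5-fold in 1 direction with control siRNA and at least 1.5-fold in the other with NR4A3 siRNA, on 1 array per condition; that these LPS differences differ was not tested. A lower level with LPS under control siRNA and a higher one under NR4A3 siRNA was seen for the tight junction gene Cldn1 (a difference of LPS differences of 3.12), the collagen-modifying enzyme gene P3h2 (2.23), the secreted factor gene Ndnf (1.95), Adam23 (1.85), Ceacam15 (1.68) and the proliferation marker Mki67 (1.24). The opposite was seen for the growth factor gene Pdgfc (-1.96), the interleukin-12 receptor subunit gene Il12rb2 (-1.83) and Ndrg1 (-1.32). All 4 arrays reached the filter for Cldn1, Adam23, Mki67, Il12rb2 and Ndrg1. At least 1 array was below it for P3h2, Ndnf, Ceacam15 and Pdgfc.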

How the results depend on the processing

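The counts of 69 higher and 59 lower genes moved mainly with the threshold and the filter. At 1.5-fold they were 307 and 225, and the share of higher genes with the larger siRNA gap without LPS was 60.9%. At 3-fold they were 21 and 10, 67.7% of the counted genes were higher, and that gap share was 95.2%. With the filter at the 75th percentile (8.67) the counts were 44 and 32. With all 4 arrays required at the median they were 36 and 28, with a gap share of 66.7%. Repeated quantile normalization gave 64 and 62 (63 and 56 shared with the counts above) and cyclic loess 64 and 60 (62 and 56 shared); setting dim values to the filter gave 62 and 53. Over the 10 alternatives no counted gene among the 104 named ones changed sign; 2 uncounted ones did, Nr4a1 (to 0.01) and Egln3 (to -0.08). Loess took 5 named genes below the threshold, quantile normalization 6 and dim values set to the filter 10. The mean of probe sets gave 69 and 58, without Etfbkmt. Of 48 list counts 13 moved by over 1.5 times when all 4 arrays were required at the median, and 7 with the filter at the 75th percentile. No paired analysis was possible because each condition had 1 array.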

Other observations

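Among 7067 probe sets without a single gene symbol, 2402 were past the filter. Of these 4 had a higher and 16 a lower difference of LPS differences of at least 2-fold. Among the 10592 named genes past the filter 69 (0.651%) were higher and 59 (0.557%) lower. The 7067 probe sets are unnamed here, and their levels belong to no gene of the comparison. Of the 128 counted genes 3 had a second probe set. For Pclaf, a partner of the replication clamp, it gave 1.20 beside the 1.01 used. For Etfbkmt, which encodes a mitochondrial methyltransferase, the second probe set, below the filter on all arrays, gave a value of 0 to 2 decimals beside the -1.55 used, and the mean of both, -0.78, was not counted. The small RNA gene Snord118 gave -1.51 on both.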
